A study of Homo sapiens with 19 samples.

Results

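CISH, SOCS1, SOCS2, SOCS3, PIM1, PIM2 and OSM form a group of 7 of the 20033 protein-coding genes measured here. All are known targets of the transcription factor STAT5, and they are described through the histone marks around their transcription start sites (TSS). The group was chosen by name around CISH, and CISH was chosen by its measured values: peaks of acetylated histone H3 covered far more of its surroundings after treatment. The values at CISH are therefore a description, and none of the 7 genes gets a test.

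The cells were MOLM-13, an established line from an acute myeloid leukaemia. They had been given Corin at 0.1 µM for 24 h, or the vehicle DMSO, to which the labels attach that same dose and time. Corin is a hybrid compound that inhibits the CoREST complex, which holds the demethylase LSD1 and class I histone deacetylases. CUT&RUN, in which an antibody guides a nuclease to cut out the DNA at a histone mark, was made for H3K27ac, H3K4me2 and H3K4me3, with 2 libraries for each mark and treatment. These 12 libraries are used here, of 19 in the series, and all come from 1 cell line whose replicates are not said to be separate cultures.

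Cytokine receptors and FLT3 signal through JAK kinases or their own kinase domain to STAT5, which dimerises, enters the nucleus and binds DNA. Among its best known targets in blood cells are its own inhibitors. CISH and the SOCS proteins carry an SH2 domain and a SOCS box, bind phosphorylated receptors or JAKs and damp the signal. PIM1 and PIM2 are serine/threonine kinases that promote survival, and OSM is a cytokine of the interleukin-6 family. H3K27ac marks active promoters and enhancers, H3K4me3 marks active promoters, and H3K4me2, a substrate of LSD1, marks both.

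STAT5 dimers favour the letters TTCNNNGAA, which read the same on both strands. They are shown for the genes whose promoters or peaks hold them closest together. Of the 35116 promoter entries in the RefSeq table (GRCh38.p14, 300 bases each), 7.66% held at least 1 such site. At least 4 were held by 0.0199%, or 7 entries, some of which overlap one another. The CISH promoter was among these 7 and held 4 sites, as 2 pairs within 250 bases of the TSS. Each stretch below is 30 bases, 5′ to 3′ along the strand of its gene, with the matched letters in capitals, and the coordinates are hg38. The upstream CISH stretch has its pair of sites at chr3:50611996-50612015 (minus strand, positions -241 to -222 from the TSS), the downstream one spans chr3:50611876-50611905, and the SOCS2 pair is at chr12:93570896-93570915 (plus strand, positions 1082 to 1101, downstream of the TSS).
CISH upstream pair: ccgttTTCCTGGAAagTTCTTGGAAatctg
CISH downstream pair: ggTTCTAGGAAgacgctgcTTCCGGGAAgg
SOCS2 pair: gccgaTTCCTGGAAagTTCCTGGAAagccg

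The upstream CISH pair and the SOCS2 pair have the same 2-base spacer. Over the 20 bases from the start of one site to the end of the next, 19 were identical, and the substitution was T15C, counted from the 5′ end of the pair with the CISH base first. Such a tandem pair lay within 10 kb of the TSS of 64 of the 20033 genes, or 0.319%. The search for this spacer was made after both pairs had been seen. In the annotation the upstream CISH pair lies in a UTR of MAPKAPK3, a kinase gene that starts 254 bp from CISH on the opposite strand. The SOCS2 pair lies in an intron of SOCS2 and an exon of SOCS2-AS1. The 300-base entries of SOCS1, PIM1 and PIM2 held 0 sites, though a PIM2 site at positions -251 to -243 lay at the edge of its entry. The SOCS3 entries do not hold the TSS used here. A match to these letters is a description of the sequence and says nothing of whether STAT5 was bound.

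The deposited files list peaks, with no reads or signal, so the measure is the number of base pairs (bp) covered by peaks within 10 kb of a TSS (a window of 20001 bp) and within 2 kb (4001 bp). The window is the same length for every gene, so levels compare between genes. A gene is called higher where both Corin libraries exceeded both DMSO libraries, and lower in the reverse case. The Corin lists were longer for every mark, with 34424 and 30029 H3K27ac peaks against 17599 and 19995 in DMSO. For H3K4me2 there were 41152 and 40042 against 30896 and 32299, and for H3K4me3 11757 and 11883 against 11104 and 11343. A longer list can cover more bp at any gene, so each result is set beside the share of all genes called, and the top-scoring peaks in equal number from each library of a mark are used where they change a call or move a value by over 1.5 times. H3K4me3 peaks covered the TSS of 4 of 11 myeloid markers in all 4 lists (SPI1, CEBPA, FLT3 and MEIS1) and of none of the T cell, B cell, erythroid or megakaryocytic, epithelial and fibroblast markers. MPO, CSF1R and ITGAM had no H3K4me3 peak within 1 kb.

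CISH (ENSG00000114737.16, chr3:50606489-50611774, minus strand) had the widest H3K27ac coverage of the 7 genes under both treatments. Peaks covered 13870 and 13890 bp within 10 kb in the Corin libraries, and 5255 and 8756 bp in the DMSO libraries. The groups did not overlap, and the 2 Corin libraries nearly coincided while the DMSO libraries differed by more than 3 kb. The means were 13880 ± 14.1 (SD, n = 2) and 7005.5 ± 2475.6 bp (SD, n = 2), a difference of 6874.5 bp, which ranked 2 of 10532 genes with any H3K27ac bp in the window. At equal numbers of peaks the difference was 6272 bp and the groups stayed apart.

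**Figure D1:**
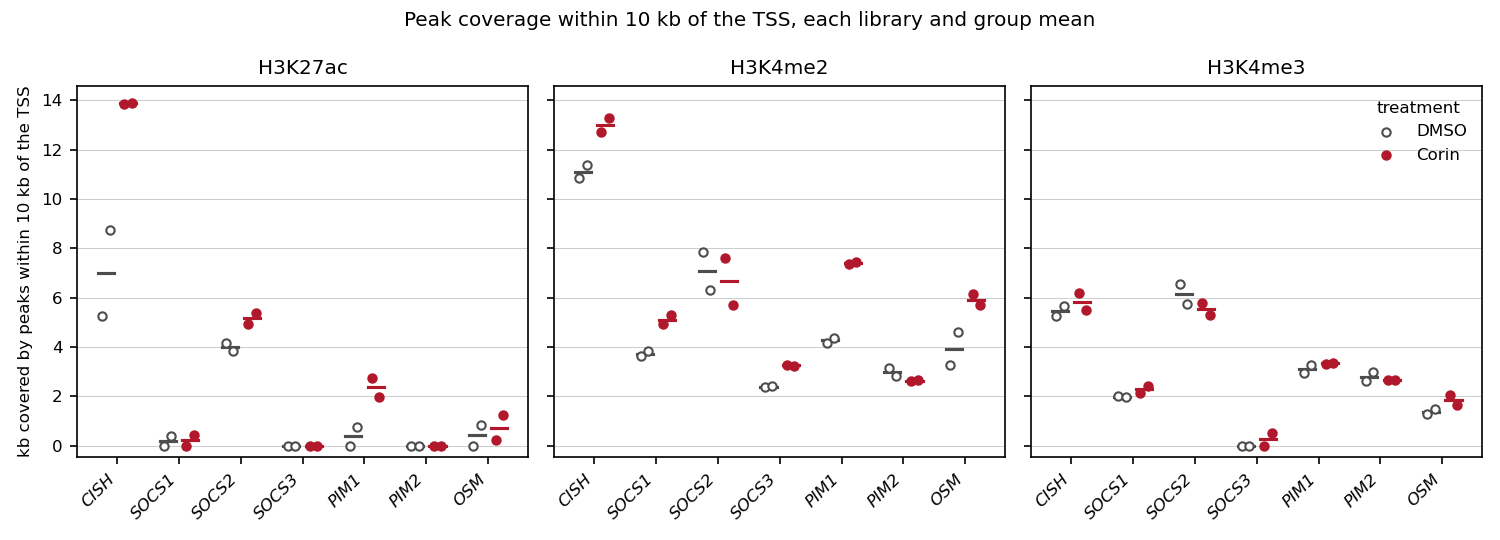
Base pairs covered by peaks within 10 kb of the TSS, in kb on the vertical axis, for the 7 genes on the horizontal axis and 1 panel per mark. Open grey points are the 2 DMSO libraries, filled red points the 2 Corin libraries and bars the group means; the Corin points of CISH stand at 13870 and 13890 bp of H3K27ac, above every other gene.

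The additional acetylation lay on both sides of CISH and within it. In all, 4242 bp of its window were under H3K27ac in both Corin libraries and neither DMSO library, and 0 bp the other way round. Of these 4242 bp, which lay in separate pieces, 64.1% were under H3K4me2 in both DMSO libraries and 14.9% under H3K4me3. For comparison, H3K4me2 peaks covered 10837 and 11398 bp of the whole 20001 bp window in the DMSO libraries.

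The largest peak lay 3′ of the gene. It was 7143 bp in Corin 1 (chr3:50599233-50606375) and 7352 bp in Corin 2 (chr3:50599070-50606421). In DMSO 1 it was 3393 bp (chr3:50599494-50602886) and in DMSO 2 it was 3930 bp (chr3:50600216-50604145). Nearer the gene, DMSO 1 also had a separate peak of 1331 bp (chr3:50603140-50604470), within the span of the Corin peaks. DMSO 2 also had separate peaks there, of 236 bp (chr3:50605306-50605541) and 613 bp (chr3:50605764-50606376). The last of these ended about where the Corin peaks did. The longest stretch of at least 200 bp acetylated only under Corin was 835 bp of intergenic sequence there (chr3:50604471-50605305). This stretch lay under no H3K4me2 peak of either DMSO library. The score of the largest peak ranked 334 of 34424 and 234 of 30029 in the Corin lists. In the DMSO lists it ranked 340 of 17599 and 387 of 19995, so it was among the top 2% of peaks in each list.

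At the promoter itself, an H3K27ac peak crossed the TSS in both Corin libraries, from position -184 to 4156 in Corin 1 and from -1792 to 3781 in Corin 2 (negative is upstream). In DMSO 2 the crossing peak was 1107 bp, and in DMSO 1 none crossed: its nearest upstream peak was 218 bp and ended at position -52. Within 2 kb the coverage was 3603 and 3793 bp in Corin against 887 and 2548 bp in DMSO, with no overlap; the difference of 1980.5 bp was 1150 bp without DMSO 1. CISH and MAPKAPK3 share this promoter, and their windows nearly coincide, so these bp cannot be assigned to one gene or the other.

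The number of H3K27ac peaks in the window did not follow the coverage. It was 9 and 6 in Corin and 6 and 10 in DMSO, so the Corin coverage came in wider and not in more numerous peaks.

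**Figure D2:**
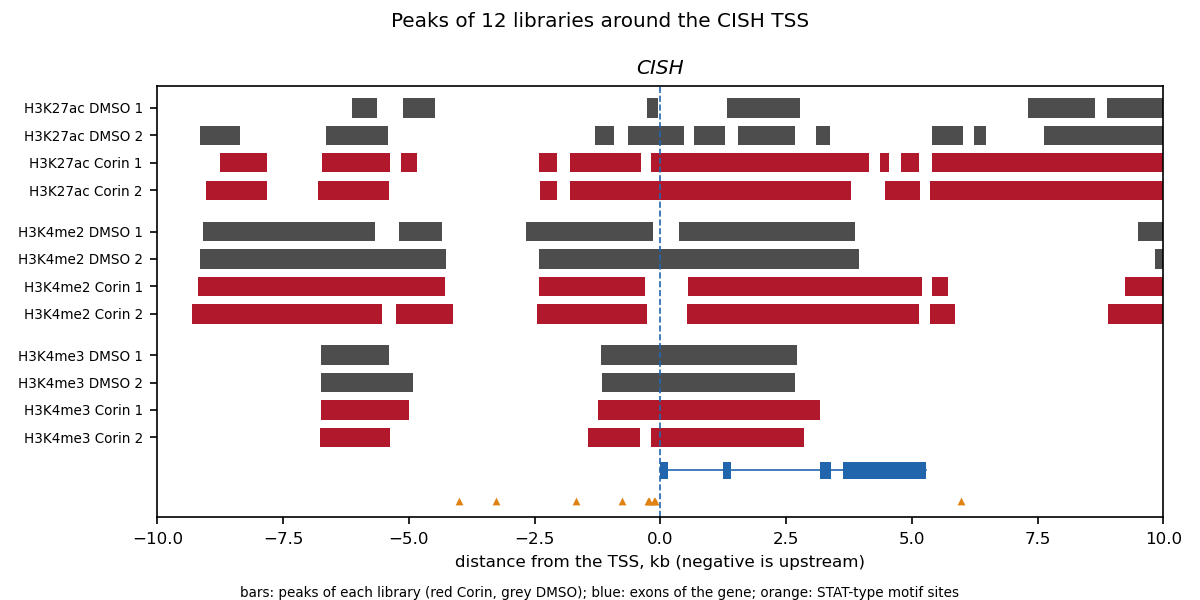
Peaks of the 12 libraries around CISH, by distance from its TSS in kb (negative is upstream; red Corin, grey DMSO), above the exons of CISH (blue) and the motif sites (orange). The H3K27ac bars of Corin cover most of the gene and its 3′ side, with short gaps, where those of DMSO have longer ones, and the H3K4me2 bars of both Corin libraries part around the TSS.

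H3K4me2 at CISH went in opposite directions near to and far from the TSS. Within 10 kb it covered 12737 and 13294 bp in Corin against 10837 and 11398 bp in DMSO. That is 1898 bp more (SD of the difference 559, n = 2 per group), with the groups apart. The longest stretch under H3K4me2 in both Corin libraries only was 1202 bp at the 3′ end of the gene (chr3:50606627-50607828), overlapping coding exon. Within 2 kb it covered 3132 and 3201 bp in Corin against 3494 and 4001 bp in DMSO, a difference of -581 bp, again with the groups apart, which was -327.5 bp without DMSO 2.

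The bp lacking near the TSS formed a gap. H3K4me2 peaks stopped at position -314 and resumed at 556 in Corin 1, and stopped at -272 and resumed at 529 in Corin 2. The gap ran from -140 to 368 in DMSO 1, and DMSO 2 had none, with a peak of 6363 bp across the TSS. All 4 motif sites of the CISH promoter fell in this gap in both Corin libraries. The upstream pair was under H3K4me2 in both DMSO libraries and the downstream pair in 1 of 2. Both pairs were under H3K27ac and H3K4me3 in both DMSO libraries; in Corin the downstream pair was in both and the upstream pair in 1 of 2, for each of these marks.

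H3K4me3 at CISH differed little between treatments. It covered 6179 and 5491 bp within 10 kb in Corin and 5262 and 5661 bp in DMSO, so the groups overlapped. With peaks joined over gaps of 500 bp they lay apart, by 480 bp. A peak of 3048 to 4424 bp crossed the TSS in all 4 libraries. The values within 2 kb lay close together, at 3249 and 3230 bp against 3192 and 3171 bp.

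Of the 9 motif sites within 10 kb of the CISH TSS, 2 were under H3K27ac in both Corin libraries and neither DMSO library, as was 21.2% of the window. They are shown with 10 flanking bases on each side, at positions -769 to -761 (chr3:50612535-50612543) and -1677 to -1669 (chr3:50613443-50613451), each in an intron of MAPKAPK3. Both were under H3K4me2 in all 4 libraries.
CISH site at -769: cttcaactctTTCAAAGAAaacgttcttg
CISH site at -1677: cctacccccaTTCCAAGAAagtggcttct

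Across the 7 genes, H3K27ac within 10 kb was higher in 3 (CISH, SOCS2 and PIM1) and lower in 0. The background was 54.6% of genes higher and 0.655% lower, and 5 of the 7 genes had any H3K27ac bp. At equal numbers of peaks the same 3 genes were higher, against a background of 35.3% higher and 3.51% lower. The shares are over genes with any bp in the mark and window. H3K4me2 was higher in 5 (CISH, SOCS1, SOCS3, PIM1 and OSM) and lower in 1 (PIM2), against 39.5% higher and 3.83% lower. H3K4me3 was higher in 3 (SOCS1, PIM1 and OSM) and lower in 0, against 25.7% higher and 8.28% lower. At equal numbers of peaks H3K4me3 was higher in 2 and lower in 1 (SOCS2), against 24.3% and 9.18%. The median difference over the 7 genes was 296.5 bp for H3K27ac, 1372 bp for H3K4me2 and 260 bp for H3K4me3. The medians over all genes were 0, 56.5 and 0 bp, and over genes with any bp they were 445, 233.5 and 63.5 bp. The median for H3K27ac includes SOCS3 and PIM2, which had 0 bp in every library. It is the value of OSM, which was 802.5 bp without Corin 1 and -209.5 bp without Corin 2. The median for H3K4me3 is the value of SOCS3, which was 0 bp without Corin 2.

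Within 2 kb, H3K27ac was higher in 3 genes (CISH, SOCS2 and PIM1) and lower in 0, against 47.8% and 0.675% of genes. At equal numbers of peaks it was higher in 2 (CISH and SOCS2), against 32.3% and 3.6%. H3K4me2 was higher in 4 (SOCS1, SOCS3, PIM1 and OSM) and lower in 2 (CISH and SOCS2), against 27.8% and 7.0%. At equal numbers of peaks PIM2 was lower too (-234.5 bp in place of -137), which made 3 lower genes against 10.8% of all. With all peaks, the PIM2 difference was 56.5 bp without Corin 1 and -330.5 bp without Corin 2. H3K4me3 was higher in 2 (CISH and OSM) and lower in 2 (SOCS2 and PIM1), against 23.5% and 9.35%. CISH, SOCS2 and PIM1 each had 1 mark higher and another lower there, as did 8.67% of the 10544 genes with bp in more than 1 mark. With peaks joined over gaps of 500 bp, SOCS2 H3K27ac overlapped between treatments and PIM1 H3K4me3 turned from lower to higher (97.5 bp).

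**Figure D3:**
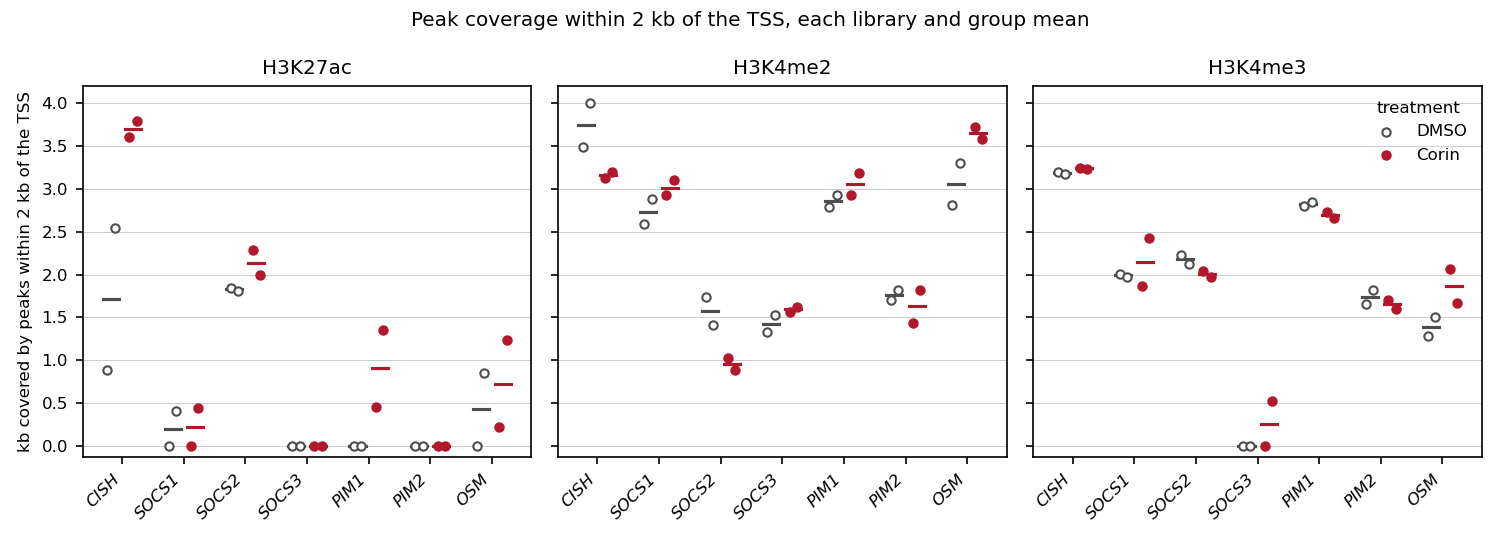
Base pairs covered by peaks within 2 kb of the TSS, in kb on the vertical axis, by gene and mark (open grey DMSO, filled red Corin, bars group means). At CISH the Corin points are above the DMSO points for H3K27ac and below them for H3K4me2, and at SOCS2 they are below for H3K4me2 and H3K4me3.

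SOCS1 (ENSG00000185338.7, chr16:11254417-11256204, minus strand), which inhibits the JAK kinases directly, lies inside the gene RMI2, whose own TSS is 6585 bp from that of SOCS1. Its H3K4 methylation was higher in Corin, and its H3K27ac overlapped between treatments. H3K27ac was near 0, with 0 and 437 bp in Corin and 0 and 404 bp in DMSO. H3K4me2 within 10 kb covered 4922 and 5292 bp in Corin and 3640 and 3830 bp in DMSO, 1372 bp more (SD 294.1) with no overlap. A stretch of 944 bp 3′ of SOCS1, in an intron of RMI2 (chr16:11252214-11253157), was covered in both Corin libraries only, and the peak there was 3586 and 3902 bp in Corin and 2550 and 2499 bp in DMSO. H3K4me3 was 2156 and 2427 bp against 2005 and 1977 bp. This separation of 300.5 bp was lost at equal numbers of peaks, where the difference was 153.5 bp, and it was 165 bp without Corin 2.

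SOCS2 (ENSG00000120833.14, chr12:93569814-93583487, plus strand), an inhibitor best known for restraining growth hormone signalling, had more acetylation and less methylation near its TSS. H3K27ac within 10 kb covered 4944 and 5403 bp in Corin and 4185 and 3843 bp in DMSO, 1159.5 bp more (SD 404.7) with no overlap. Within 2 kb it was 2284 and 1992 bp against 1847 and 1809 bp. That difference, of 310 bp, ranked 4709 of 9039 genes with any H3K27ac bp there, whose median was 327.5 bp. With peaks joined over gaps of 500 bp the groups overlapped in both windows, and the differences were 790.5 and 49.5 bp. Without Corin 1 the difference within 2 kb was 164 bp in place of 310. H3K4me2 within 2 kb was 1022 and 890 bp in Corin and 1741 and 1413 bp in DMSO, a difference of -621 bp (SD 250) with no overlap.

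The H3K4me2 bp that only the DMSO libraries had at SOCS2 were chiefly 1 stretch of 486 bp just inside the gene (chr12:93570344-93570829), overlapping a UTR of SOCS2 and SOCS2-AS1. It held 1 motif site in full, shown with its flanks (chr12:93570635-93570643), which was under H3K27ac and H3K4me3 in all 4 libraries.
SOCS2 site at 821: atcgctatccTTCCCTGAAcccgggcgct
The tandem pair of SOCS2 was likewise under H3K27ac and H3K4me3 in all 4 libraries, and under H3K4me2 in none.

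Over the whole 10 kb window H3K4me2 at SOCS2 overlapped between treatments, at 7606 and 5727 bp in Corin and 7852 and 6308 bp in DMSO. Libraries numbered 1 were the higher ones in each treatment. H3K4me3 was 5775 and 5312 bp in Corin and 6544 and 5747 bp in DMSO, also overlapping. That difference, of -602 bp, ranked 11180 of 11193 genes, and at equal numbers of peaks it was -938 bp with the groups apart. Without DMSO 1 it was -203.5 bp, so the rank rests on that library. GENCODE's canonical SOCS2 transcript starts 2861 bp further downstream; around that start the groups overlapped within 2 kb in H3K4me2 (-29.5 bp) and in H3K4me3 (-178 bp), so neither lower call held there. SOCS2 held 16 motif sites within 10 kb, against a median of 6 per gene, and 30 genes of 20033 held more. SOCS3 held 12, OSM 10 and CISH 9, and 4.10%, 11.9% and 18.5% of genes held as many or more. SOCS1 and PIM2 held 3 each and PIM1 held 4, below the median.

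SOCS3 (ENSG00000184557.4, chr17:78356778-78360077, minus strand), which binds the shared receptor subunit of interleukin-6 type cytokines, had no H3K27ac peak within 10 kb in any library. It had H3K4me2 alone, apart from 1 H3K4me3 peak of 520 bp in Corin 2. H3K4me2 was 3283 and 3248 bp in Corin and 2368 and 2430 bp in DMSO, 866.5 bp more (SD 50.3) with no overlap, and 545 bp more at equal numbers of peaks. A peak of 1324 to 1619 bp crossed the TSS in all 4 libraries, and 3 of the 12 motif sites in the window lay under H3K4me2 in all of them.

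**Figure D4:**
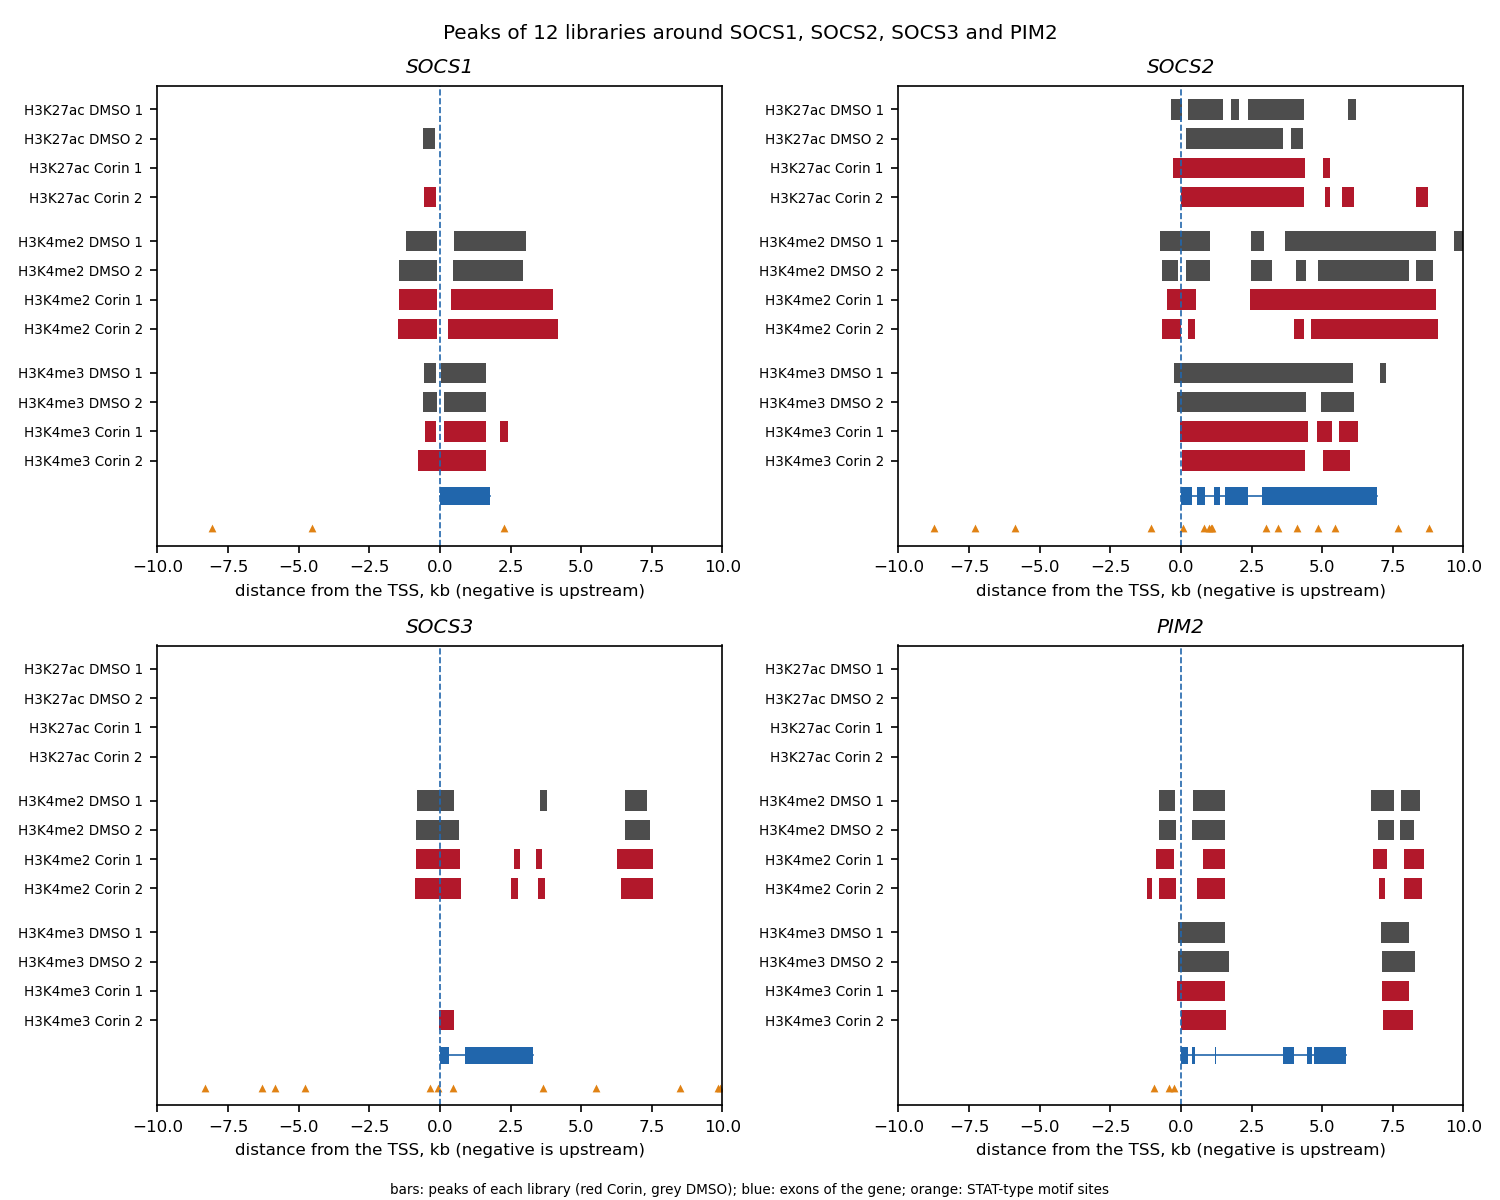
Peaks of the 12 libraries around SOCS1, SOCS2, SOCS3 and PIM2, by distance from each TSS in kb (red Corin, grey DMSO; exons in blue, motif sites in orange). SOCS2 alone among the 4 has H3K27ac peaks in every library, over the 5′ part of the gene, and SOCS3 and PIM2 have none.

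PIM1 (ENSG00000137193.14, chr6:37170152-37175428, plus strand) had the largest H3K4me2 difference of the 7 genes. Peaks covered 7362 and 7441 bp within 10 kb in Corin and 4181 and 4382 bp in DMSO. The groups were far apart and each pair of libraries was close. The difference of 3120 bp (SD 152.7) ranked 34 of 14079 genes with any H3K4me2 bp, and it was 2339 bp at equal numbers of peaks. Over the gene body the difference was 1825 bp. Corin 2 also had upstream peaks that no DMSO library had, at positions -9256 to -8932 and -8734 to -8451. The widest peak was 5072 and 5847 bp in Corin and 2473 and 2600 bp in DMSO. Stretches methylated only under Corin were 373 bp overlapping a coding exon (chr6:37172637-37173009), 510 bp in an intron (chr6:37173234-37173743) and 244 bp past the gene (chr6:37175765-37176008).

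H3K27ac at PIM1 was 2759 and 1997 bp within 10 kb in Corin and 0 and 772 bp in DMSO, 1992 bp more (SD 767). At equal numbers of peaks this was 592.5 bp with the groups still apart. Within 2 kb, 459 and 1352 bp were covered in Corin and 0 in both DMSO libraries, a difference of 905.5 bp that was 459 bp without Corin 2. The separation within 2 kb was lost at equal numbers of peaks, where Corin 1 also had 0 bp. Both Corin libraries shared 330 bp of it, at positions -625 to -296 (chr6:37169527-37169856). H3K4me3 within 10 kb was 3328 and 3353 bp against 2942 and 3282 bp.

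PIM2 (ENSG00000102096.10, chrX:48913182-48919024, minus strand), the close relative of PIM1, went the other way. It had no H3K27ac peak within 10 kb, and its H3K4me2 was 2630 and 2651 bp in Corin and 3169 and 2850 bp in DMSO. The difference was -369 bp (SD 226.1) with no overlap, and -819 bp at equal numbers of peaks; with a score of at least 100 the groups overlapped (-292 bp), and without DMSO 1 the difference was -209.5 bp. Of the bp, 476 were under H3K4me2 in both DMSO libraries only, and 240 of these formed a stretch over a coding exon of SLC35A2, whose TSS is 7066 bp away (chrX:48911481-48911720). H3K4me3 was 2649 and 2686 bp against 2619 and 2976 bp, overlapping.

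OSM (ENSG00000099985.4, chr22:30262829-30266851, minus strand), the cytokine of the group, had more H3K4me2 and H3K4me3 in Corin. H3K4me2 within 10 kb was 6147 and 5689 bp in Corin and 3286 and 4602 bp in DMSO, 1974 bp more (SD 985.3) with no overlap. The largest stretch only under Corin was 738 bp of intergenic sequence at positions -6925 to -6188 (chr22:30273039-30273776). H3K4me3 was 2070 and 1669 bp in Corin and 1277 and 1503 bp in DMSO, 479.5 bp more (SD 325.5), all in 1 peak over the TSS, and 279 bp more without Corin 1.

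H3K27ac at OSM overlapped between treatments, with 218 and 1230 bp in Corin and 0 and 855 bp in DMSO. Of its 10 motif sites within 10 kb, 3 lay within 300 bp upstream of the TSS and were under H3K4me2 and H3K4me3 in every library. The one nearest the TSS, at chr22:30266948-30266956, was under no H3K27ac peak.
OSM site at -105: tggggtcatgTTCCCAGAAggcctgccct

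**Figure D5:**
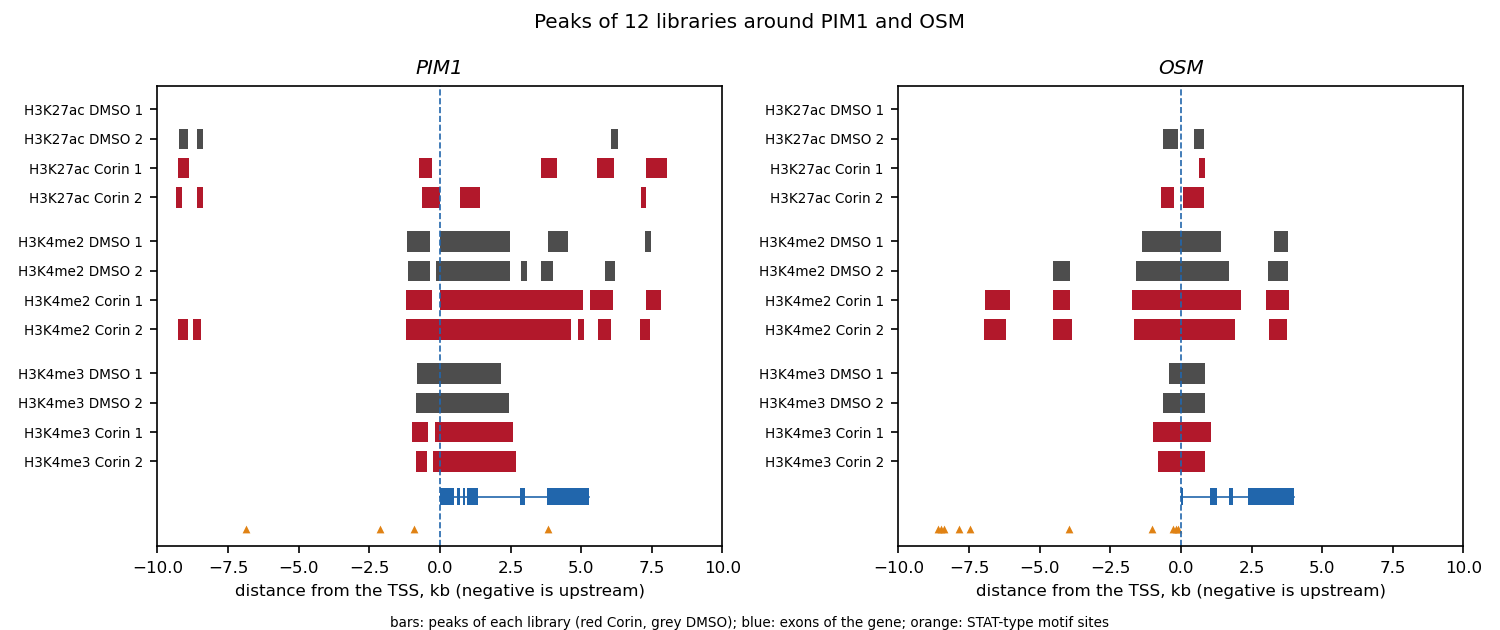
Peaks of the 12 libraries around PIM1 and OSM, by distance from each TSS in kb (red Corin, grey DMSO; exons in blue, motif sites in orange). At PIM1 the Corin H3K4me2 bars extend about as far as the 3′ end of the gene, and at OSM both Corin libraries have an H3K4me2 peak more than 6 kb upstream that both DMSO libraries lack.

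Set in order by H3K27ac within 10 kb in DMSO, CISH stood above SOCS2 in both libraries. The remaining 5 genes had at most 855 bp in any DMSO library and do not separate. In Corin the order was CISH, SOCS2 and PIM1, each apart from the next, with OSM, SOCS1, SOCS3 and PIM2 at 1230 bp or less. By H3K4me2 in DMSO, CISH was highest and SOCS2 next, followed by PIM1, OSM and SOCS1, of which OSM overlapped both others, then PIM2 and last SOCS3. In Corin, PIM1 overlapped SOCS2 in H3K4me2, and so did OSM, while CISH stayed highest and PIM2 took the lowest place.

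The rest of the pathway was taken as 55 genes in 6 lists. H3K27ac within 10 kb was higher in 19 of the 35 that had any (54.3%) and lower in 0, and at equal numbers of peaks 10 were higher. H3K4me2 was higher in 25 of 49 (51.0%) and lower in 1. H3K4me3 was higher in 8 of 39 (20.5%) and lower in 2. The shares of all genes with bp that were higher were 54.6% for H3K27ac, 39.5% for H3K4me2 and 25.7% for H3K4me3, and at equal numbers of peaks 35.3%, 31.3% and 24.3%.

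Of 11 other inhibitors of the pathway, 9 had H3K27ac bp and 5 were higher in it, against 54.6% of all genes with bp, and 3 were at equal numbers of peaks, against 35.3%. PTPN6, the phosphatase SHP-1 of blood cells, had 7967 and 7222 bp in Corin and 3134 and 3897 bp in DMSO. SH2B3, the adaptor LNK, had 4255 and 3709 bp against 1049 and 1430 bp. The others were CBL (930 bp more), PTPN1 (372.5) and PTPN11 (353); the last 2 were higher only while all peaks were counted. In H3K4me2, 4 of the 10 with bp were higher (39.5% of all): SH2B3 (2423 bp more), PTPN1 (1793.5), PTPN6 (977) and PIAS4 (541.5). CBL was lower (-454 bp), as were 3.83% of all.

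Among 15 receptors, 5 of the 8 with any H3K27ac bp were higher in it (54.6% of all genes with bp): the common gamma chain IL2RG by 4411.5 bp, the G-CSF receptor CSF3R by 2656 bp, FLT3 by 2416.5 bp, the erythropoietin receptor EPOR by 1081 bp and IL7R by 546.5 bp, the last only while all peaks were counted. H3K4me2 was higher in 6 of 11 with bp (39.5% of all), the largest being EPOR (1978 bp) and CSF3R (1149 bp). Of the 11 JAK and STAT genes, 7 had H3K27ac bp. In that mark 2 were higher (54.6% of all), JAK2 the most, by 996.5 bp, and 1 at equal numbers of peaks (35.3% of all). H3K4me2 was higher in 6 of 11 (39.5% of all), the largest being TYK2 (1519.5 bp) and STAT6 (1511 bp).

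Of 10 other STAT5 targets, 7 had H3K27ac bp and 5 were higher in it (54.6% of all), and 2 at equal numbers of peaks (35.3% of all). All 10 had H3K4me2 bp and 8 were higher in it (39.5% of all), and 7 at equal numbers of peaks (31.3% of all). The cell cycle inhibitor CDKN1A (2176 bp) and the cyclin CCND2 (1346 bp) led in H3K27ac, CCND2 only while all peaks were counted, and ID1 (1989.5 bp), the cyclin CCND3 (1706.5 bp) and the survival gene BCL2L1 (1647 bp) led in H3K4me2. Among 5 relatives of the SOCS and PIM genes, 4 had H3K27ac bp. PIM3 (2071.5 bp) and SOCS4 (340.5 bp) were higher in it (54.6% of all). Both were so only while all peaks were counted (35.3% of all at equal numbers). All 5 had H3K4me2 bp, and SOCS6 alone was higher in it (110.5 bp), against 39.5% of all. The 3 OSM receptor subunits had no H3K27ac bp in any library.

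The genes with the profile most like CISH were sought by the mean absolute difference in bp over the 12 libraries, leaving out genes whose window overlaps that of the member, such as MAPKAPK3. They were P2RY2 (951.8 bp), LST1 (1031.6 bp), PARP8 (1348.6 bp), ZFP36 (1366.9 bp) and LTB (1371.1 bp). The most alike gene was IER3 for SOCS1 (242.4 bp), KMT2D for SOCS2 (698.8 bp), TPPP2 for SOCS3 (62.2 bp), TMEM109 for PIM1 (366.3 bp), STPG3 for PIM2 (165.3 bp) and FGF11 for OSM (288.2 bp). No other member of the group was among the nearest genes of any member.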

How the data were processed

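CUT&RUN was made on MOLM-13 cells with antibodies to H3K27ac, H3K4me2 and H3K4me3. Per the labels' protocols, paired ends of 150 bp were sequenced to at least 5000000 reads per sample; the depth of each library and the number of reads behind a peak are unknown here, so no counting interval is given. Per the submitters' processing notes, Trim Galore, Bowtie2, Picard and MACS2 were used, with GRCh38 and hg38 named as builds; versions and settings are not given in the sources used here. The authors deposited 1 peak list per library, with coordinates and a score per peak. The score is the authors' own value. It ranks peaks within a list and, in 1 alternative, sets a minimum of 100 that is not scaled between lists. The lists hold 292523 peaks, 0 of which lie past the end of an hg38 chromosome. The remaining 7 libraries of the series were not analysed here.

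Overlapping peaks were merged and the bp covered were summed, by Python 3.11.15 (figures by matplotlib 3.10.9), around the 5′ end of each protein-coding gene record of GENCODE 44, without the mitochondrial genes. Shares of genes are over genes with any bp in a mark and window. Equal numbers of peaks means the 17599, 30896 and 11104 top-scoring peaks of each H3K27ac, H3K4me2 and H3K4me3 library. The code was tested on simulated data. No test was made, since the genes were chosen with values known, and 2 libraries against 2 give no exact test that can pass a threshold. The members, gene lists and alternatives were chosen with earlier results of these data known. Genes named beyond the 7 members are pathway genes higher or lower in H3K27ac or H3K4me2 within 10 kb (at most the 5 largest differences per list), genes starting inside a member's window, and the most alike genes (5 for CISH, 2 for each other member, of which the nearest is named). Cell type markers count as present where an H3K4me3 peak covers the TSS. Promoters were matched by symbol for 5 of 7 members, and all were identical with hg38. Some items of the pathway lists and motif sites are not reported here.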

Additional observations from a re-analysis of the deposited data

Results flagged for a closer look

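At CISH, SOCS2 and PIM1, marks went in opposite directions within 2 kb of the TSS: every Corin library was above every DMSO library for 1 mark and below for another. Of 10544 genes with bp in more than 1 mark, 8.67% had such a pattern. The difference between marks was not tested at any of them, and the marks come from separate libraries. At CISH the difference for H3K27ac exceeded that for H3K4me2 by 2561.5 bp, and that for H3K4me2 minus that for H3K4me3 was -639 bp. At SOCS2 the difference for H3K27ac exceeded that for H3K4me2 by 931 bp and that for H3K4me3 by 481.5 bp. At PIM1 the difference for H3K27ac exceeded that for H3K4me3 by 1032.5 bp, and that for H3K4me2 exceeded it by 329 bp. The CISH differences within 2 kb were the same at equal numbers of peaks, at 1980.5 bp for H3K27ac, -581 bp for H3K4me2 and 58 bp for H3K4me3, but that of H3K27ac was 1150 bp without DMSO 1 and that of H3K4me2 -327.5 bp without DMSO 2. With peaks joined over gaps of 500 bp, PIM1 H3K4me3 was higher in Corin (97.5 bp) and SOCS2 H3K27ac overlapped (49.5 bp). The PIM1 H3K27ac groups overlapped at equal numbers of peaks, and around the canonical start of SOCS2 its H3K4me2 and H3K4me3 groups overlapped.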

How the results depend on the processing

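The number of higher genes ranged, with 1 library left out at a time, from 3 to 5 for H3K27ac within 10 kb and from 3 to 5 within 2 kb, each reaching 5 without Corin replicate 1. It was 5 throughout for H3K4me2 within 10 kb and 4 within 2 kb. For H3K4me3 it ranged from 3 to 5 within 10 kb (5 without DMSO replicate 2) and from 2 to 4 within 2 kb (4 without Corin replicate 1). With fewer libraries, less is needed for groups to lie apart. With peaks joined over gaps of 500 bp, 2 genes in place of 3 were higher in H3K27ac in each window. A 5 kb window gave 4 higher genes for H3K4me3 in place of 2.

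The CISH H3K4me2 difference of -581 bp within 2 kb turned to 493.5 bp within 5 kb, 2402.5 bp within 20 kb and 911.5 bp over the gene body. That of SOCS2 turned to 127.5 bp within 20 kb. The PIM1 H3K4me3 difference of -127 bp turned to 97.5 bp with peaks joined over gaps of 500 bp, 228.5 bp within both 5 and 20 kb, and 355.5 bp over the gene body. The cause was not tested, apart from the window, which then takes in bp farther from the TSS.

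Peak lists give no depth, and bp absent from a list are only below the authors' threshold. No replicate block was fitted, since no test was made, and nothing says what the replicate numbers share. Paired by number, the CISH H3K27ac difference within 10 kb was 8615 and 5134 bp, and that of PIM1 in H3K4me2 was 3181 and 3059 bp.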
